A study of Danio rerio with 6 samples.

Results

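The pituitary hormone genes were followed in the heads of homozygous *fbln1* mutant zebrafish larvae at 10 dpf (days post fertilization) and in heads of their wild type (WT) siblings. The set holds 10 genes, chosen by name from the 32520 genes of the count table: the growth hormone family genes *gh1*, *prl*, *smtla* and *smtlb*, the precursor gene *pomca*, the glycoprotein hormone genes *cga*, *tshba*, *fshb* and *lhb*, and the transcription factor gene *pou1f1*. Each name matched exactly 1 identifier. RNA-Seq was performed on 3 pools of *fbln1*-/- mutant heads (allele ulg075, a small CRISPR/Cas9 deletion in the coding region) and on 3 pools of AB WT heads, with 21 heads per pool by the sample labels. All fish were of the AB strain and came from crosses of heterozygous parents, and the growth protocol also names the transgenic line ulg071 Tg for every sample. The mutants carry 1 allele of a single line, and each pool averages many larvae, so that differences between single larvae cannot be seen.

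The pituitary is the gland below the brain that releases most of the hormones acting on other glands. In fish, as in mammals, several cell types make these hormones. Somatotropes make growth hormone, lactotropes prolactin, thyrotropes thyroid-stimulating hormone, and gonadotropes the follicle-stimulating and luteinizing hormones. Corticotropes and melanotropes make the peptides cut from proopiomelanocortin. Fish have in addition somatolactotropes, which make somatolactin, a relative of growth hormone and prolactin found only in fish. The factor Pou1f1 (Pit-1) is needed for the growth hormone, prolactin and thyrotropin lineages. All of these cells hold their hormone in granules, and factors from the hypothalamus release it or hold it back.

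The libraries held 15174207 to 18721515 reads on genes. The deposited values are these counts after division by 1 size factor per library, called normalized counts below, and 3 reads, taken as the floor of detection, stand at 2.60 to 3.20 normalized counts. Such a floor covers counting error only. The *fbln1* mRNA itself did not part the groups, with 93.2, 53.1 and 39.9 normalized counts in mutant pools 1, 2 and 3, against 77.4, 136 and 70.4 in WT pools 1, 2 and 3 (log2 fold change -0.63, limma adjusted p = 0.162). A level of mRNA does not check for a small deletion, and the groups rest on the labels. The first principal component, with 67.3% of the variance, did part the 3 mutant from the 3 WT pools. Of markers of the head, the rod opsin gene *rho* had 42690 to 57716 normalized counts in mutant pools and 48643 to 65170 in WT pools, while no gene of a list of 12 posterior trunk Hox genes exceeded 17.7 in any pool. The summed Hox values were nevertheless 24.6 to 44.8 in mutant pools, against 11.3 to 20.3 in WT pools. Among genes of trunk organs, exocrine pancreas and liver markers were abundant in both groups. Intestine markers summed to 30710 to 57490 normalized counts in mutant pools, against only 3725 to 5757 in WT pools. The markers thus do not match heads alone.

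None of the pituitary genes was called different between mutant and WT heads. In limma, fitted on log2(normalized count + 1), calls required a log2 fold change beyond 0.5 in either direction together with an adjusted p under 0.05, and 20691 genes that reached 10 normalized counts in 3 or more libraries were tested. Of the 10 members, 5 were tested, namely *gh1*, *prl*, *pomca*, *cga* and *tshba*, and the other 5 were below this filter. Of the 5 tested members, 0 were called, against 18.1% of all tested genes (15.4% called higher and 2.68% called lower). Count tests on the recovered reads (edgeR, DESeq2) and limma-voom also called 0 of the 5. At an unadjusted limma p under 0.05 there were 2 (*gh1* and *tshba*), beside 44.8% of all tested genes, and at an adjusted p under 0.05 without the limit on the fold change there was 1 (*gh1*), beside 33.9%. Both of these shares are near or below the background of this comparison. For 0 of the 5 did all mutant pools exceed all WT pools, beside 24.5% of all tested genes. For 2 (*gh1* and *tshba*) all mutant pools were below all WT pools, beside 24.3% of all tested genes. All 5 had a negative log2 fold change (all but *pomca* and *cga* with libraries scaled to neuron markers or without WT pool 2), as had 52.3% of the tested genes, and their median was -0.23 beside -0.025 over all tested genes.

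**Figure D1:**
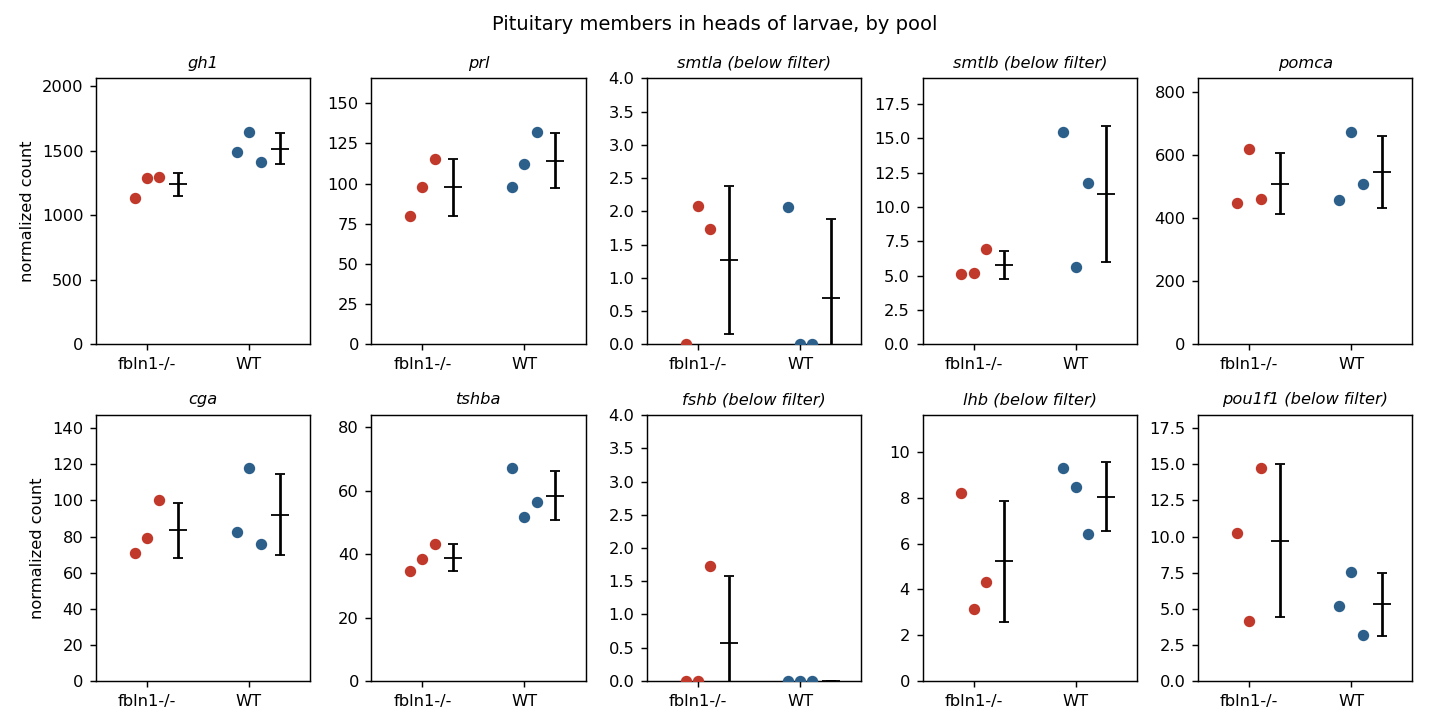
Normalized counts (vertical axis, linear from 0) of each of the 10 pituitary genes in the 3 *fbln1*-/- pools (red, left) and the 3 WT pools (blue, right), with mean and SD as bars beside the points. The groups do not overlap for *gh1* and *tshba*, while *smtla* and *fshb* stay at or below 2.08 in every pool. Every mutant pool lies below every WT pool for 24.3% of all tested genes.

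*gh1* (ENSDARG00000038185) codes for growth hormone, which acts on body growth in large part through insulin-like growth factors. It had 1131, 1286 and 1294 normalized counts in mutant pools 1, 2 and 3, against 1485, 1646 and 1410.5 in WT pools 1, 2 and 3. Every mutant pool was below every WT pool, a pattern shared by 24.3% of all tested genes. Mutant pools averaged 1237 ± 91.5, against 1514 ± 121 in WT pools (SD, n = 3 each), so that the mutant mean was 81.7% of the WT mean. The log2 fold change was -0.29 (limma adjusted p = 0.0244, standard error 0.086), with a 95% interval from -0.48 to -0.10. The log2 fold change did not reach the limit of 0.5, and the gene was therefore not called. The whole interval also lies inside this limit. The adjusted p was 0.105 without mutant pool 1, 0.0652 without WT pool 1 and 0.0874 without WT pool 2, over a range of log2 fold changes from -0.34 to -0.23 with each library left out in turn. In these pools, fewer somatotropes, less *gh1* RNA per somatotrope and a different mix of tissues cannot be told apart. The same holds for each hormone gene.

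*prl* (ENSDARG00000037946) codes for prolactin, which in fish is best known for keeping salt in the body in fresh water. Mutant pools 1, 2 and 3 had 79.9, 97.9 and 115 normalized counts, against 98.1, 112 and 132 in WT pools 1, 2 and 3. The groups overlapped, with mutant pool 3 above 2 of the 3 WT pools. Mutant pools averaged 97.7 ± 17.7, against 114 ± 17.2 in WT pools (SD, n = 3 each). The log2 fold change of -0.23 had a 95% interval from -0.64 to 0.18 (limma adjusted p = 0.370), which includes 0 as well as decreases beyond the limit of 0.5.

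The somatolactin genes were at the edge of detection. *smtlb* (ENSDARG00000017251) had 5.12, 5.21 and 6.93 normalized counts in the mutant pools, against 15.5, 5.65 and 11.7 in the WT pools, which were 5, 5 and 8 reads in the mutant and 15, 6 and 11 reads in WT. WT pool 2 lay among the mutant pools, and in a fit without the filter on low values the log2 fold change was -0.74 (95% interval -1.76 to 0.29, limma adjusted p = 0.284). *smtla* (ENSDARG00000038191) had 0, 2 and 2 reads in the mutant pools and 2, 0 and 0 reads in the WT pools, all under the floor of 3 reads, and no fold change is given.

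*pomca* (ENSDARG00000043135) codes for proopiomelanocortin, the precursor of corticotropin, which drives the cortisol-producing interrenal cells, and of the melanotropins, which act on pigment cells. It had 448, 620 and 459 normalized counts in mutant pools 1, 2 and 3, against 456, 674 and 508 in WT pools 1, 2 and 3. The groups overlapped almost fully, and pool 2 was the highest in both. Mutant pools averaged 509 ± 96.2, against 546 ± 114 in WT pools (SD, n = 3 each), with a log2 fold change of -0.10 (adjusted p = 0.665 in limma, standard error 0.16). Its 95% interval ran from -0.45 to 0.25, within the limit of 0.5 on both sides. Without WT pool 2 the log2 fold change was 0.06.

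Thyrotropin and the gonadotropins each consist of a common alpha subunit, coded by *cga*, and a beta subunit that gives the hormone its action. *cga* (ENSDARG00000040479) had 70.7, 79.2 and 100.5 normalized counts in mutant pools 1, 2 and 3, against 82.6, 118 and 75.8 in WT pools 1, 2 and 3. Mutant pool 3 was above 2 WT pools. The log2 fold change was -0.13 (95% interval -0.60 to 0.34, limma adjusted p = 0.675), and it was 0.06 without WT pool 2. A second identifier named CGA in capitals (ENSDARG00000103345), which the rule does not take, held 0 reads in the mutant pools and at most 3 in a WT pool.

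*tshba* (ENSDARG00000033726) codes for the beta subunit of thyroid-stimulating hormone and had the lowest log2 fold change of the tested members. Its normalized counts were 34.8, 38.5 and 43.3 in mutant pools 1, 2 and 3, against 67.1, 51.8 and 56.5 in WT pools 1, 2 and 3. As for *gh1*, every mutant pool was below every WT pool, a pattern of 24.3% of all tested genes. Mutant pools averaged 38.9 ± 4.25, against 58.5 ± 7.82 in WT pools (SD, n = 3 each), the mutant mean being 66.5% of the WT mean. The log2 fold change of -0.57 (standard error 0.22) was past the limit on the fold change, but its adjusted p of 0.0653 (limma) was not under 0.05. Its 95% interval ran from -1.06 to -0.09. Over 18 alternatives its log2 fold change ranged from -0.66 to -0.44, with adjusted p of 0.035 to 0.198 in these fits. It was under 0.05 in 1 alternative, limma without a variance trend, where *tshba* was called. A read number of 34 to 50 in the mutant pools and 53 to 65 in the WT pools stood behind these values.

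The gonadotropin beta subunits were hardly detected. *lhb* (ENSDARG00000099363), of luteinizing hormone, had 8, 3 and 5 reads in the mutant pools and 9, 9 and 6 reads in the WT pools. In normalized counts these were 8.20, 3.13 and 4.33 in the mutant, against 9.29, 8.48 and 6.40 in WT, and the groups overlapped. Without the filter on low values, the log2 fold change was -0.61 with a 95% interval from -1.64 to 0.41 (limma adjusted p = 0.382). *fshb* (ENSDARG00000010841), of follicle-stimulating hormone, had 2 reads in mutant pool 3 and 0 reads in the other 5 pools, which allows up to 3 reads per library.

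*pou1f1* (ENSDARG00000058924) had 10.2, 4.17 and 14.7 normalized counts in mutant pools 1, 2 and 3, against 5.16, 7.54 and 3.20 in WT pools 1, 2 and 3. Mutant pools 1 and 3 were above all WT pools, while mutant pool 2 lay between them. These values come from 10, 4 and 17 reads in the mutant and 5, 8 and 3 reads in WT, below the filter. In the fit without the filter the log2 fold change was 0.68 (95% interval -0.48 to 1.84, limma adjusted p = 0.389), an interval that holds changes in both directions. With 3 to 17 reads per pool, these values do not settle whether *pou1f1* was lower, unchanged or higher in the mutant.

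**Figure D2:**
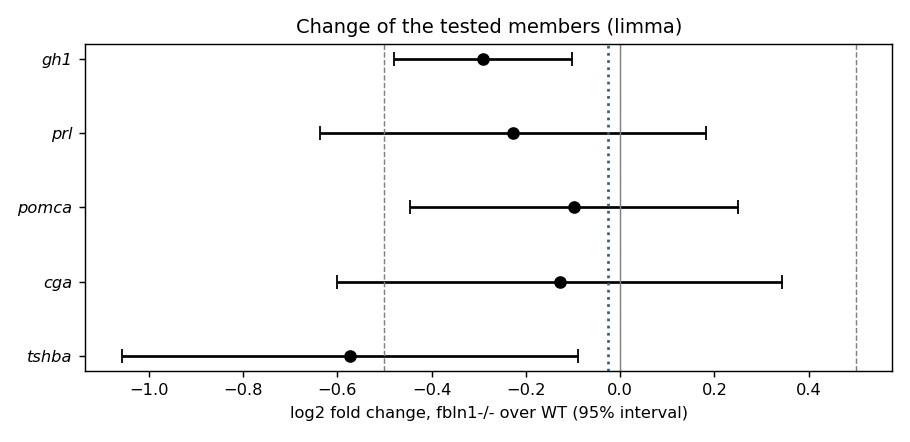
Log2 fold change of *fbln1*-/- over WT (horizontal axis) of the 5 tested pituitary genes, as points with 95% intervals from limma. Dashed lines mark the limit of 0.5 in each direction and the dotted line the median of all tested genes at -0.025, and only the intervals of *gh1* and *tshba* lie wholly below 0.

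The 5 tested genes varied between pools in part together. Mutant pool 1 was the lowest of the 6 pools for all 5 genes, and WT pool 2 was the highest for *gh1*, *pomca* and *cga*. For *pomca* the lowest rank was close, with 448 normalized counts in mutant pool 1 and 456 in WT pool 1. Each intestine marker was highest in mutant pool 1. Of these, *fabp2* had 13336 normalized counts there, against 6453 and 5578 in mutant pools 2 and 3. The part of this in the low hormone values was not tested. Summed over the 10 members, the share of all counted reads was 106, 129 and 126 RPM in mutant pools 1, 2 and 3, against 133, 168 and 136 in WT pools 1, 2 and 3. The groups do not overlap in this sum, of which *gh1* gives the largest part of the reads. Among single tested genes, 24.3% had every mutant pool below every WT pool. Per 1000 normalized counts of 9 neuron markers, the sum of the members was 38.5, 46.9 and 41.6 in mutant pools 1, 2 and 3. In WT pools 1, 2 and 3 it was 41.4, 48.4 and 41.3, so that the groups overlapped on that scale, which was chosen after the values were seen. For *gh1* the coefficient of variation was 7.40% in the mutant and 7.97% in WT, and the median over 2138 other tested genes within 1.5-fold of its mean stood at 6.79% in mutant pools and 5.17% in WT pools. *pomca* varied more than its neighbours in level, with 18.9% in the mutant and 20.8% in WT beside medians of 8.09% and 6.65% over 3645 genes, again for mutant and WT. For *tshba* the spread of 10.9% in the mutant and 13.4% in WT was no larger than the counting error of its reads, which was 14.1% to 17.1% in mutant pools and 12.4% to 13.7% in WT pools.

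Where the RNAs of 2 genes come from the pituitary alone, their ratio does not depend on how much pituitary tissue a pool held. Whether this holds for each gene was not tested. On the log2 scale, the ratio of *tshba* to *cga* was -1.0, -1.02 and -1.20 in mutant pools 1, 2 and 3, against -0.30, -1.17 and -0.42 in WT pools 1, 2 and 3. WT pool 2 thus lay among the mutant pools. The mean difference of this ratio was -0.45 (exact permutation test, two-sided, p = 0.3, adjusted p = 0.625 over 5 ratios). The ratio of *tshba* to *gh1* differed by -0.28 (exact permutation p = 0.2, adjusted p = 0.625), and those of *prl*, *pomca* and *cga* to *gh1* by 0.06, 0.19 and 0.16, with adjusted p of 0.7, 0.625 and 0.625 in the same exact permutation test. With 3 pools against 3 this test cannot go below 0.1. The 5 ratios were chosen after the single values were seen, and unequal change among the hormone genes was not shown.

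**Figure D3:**
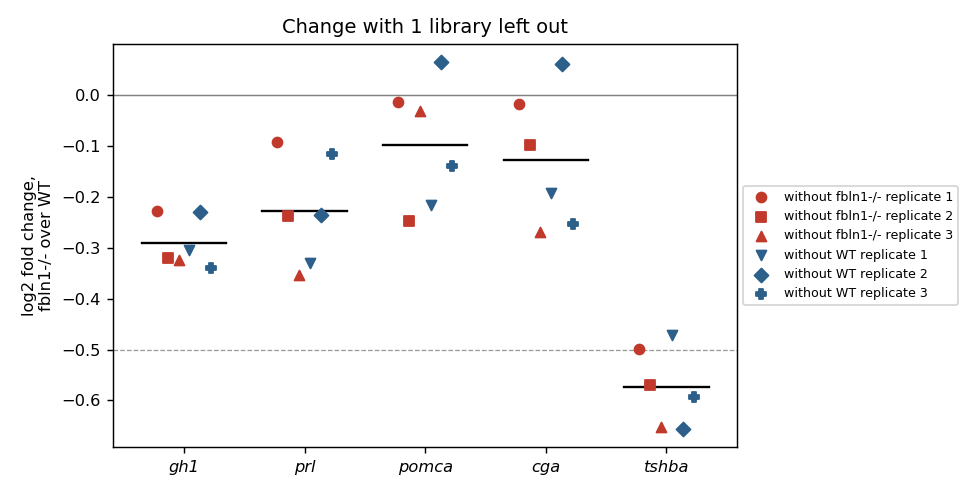
Log2 fold change of *fbln1*-/- over WT (vertical axis) of the 5 tested pituitary genes when each library was left out in turn, with red for a left-out mutant pool, blue for a left-out WT pool and a black line for all 6 pools. *gh1*, *prl* and *tshba* stay below 0 throughout, while *pomca* and *cga* reach 0.06 without WT pool 2.

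The genes whose values ran most like the mean of the tested members over the 6 libraries were *mical1*, *nudt3a*, *gpr155b*, *RASGRF1* and *kcnk2b*, with Pearson correlations of 0.997, 0.994, 0.992, 0.991 and 0.991. These are the highest of all tested genes outside the set, taken over only 6 points in 2 groups, and are given as a description. None of the 5 was called. *mical1* had 108, 141 and 152 normalized counts in mutant pools 1, 2 and 3, against 164, 217 and 172 in WT pools 1, 2 and 3. The correlation of the members themselves to their mean was 0.956 for *gh1*, 0.754 for *cga*, 0.737 for *prl*, 0.674 for *tshba* and 0.606 for *pomca*. Each of these genes is part of that mean, so that positive values are in part built in.

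Among 12 transcription factors that act in pituitary development, 11 were listed and 10 tested, of which 1 was called higher and none lower. Without the limit on the fold change 1 was higher and 3 were lower, beside 18.9% and 15.1% of all tested genes. The median log2 fold change was -0.26. The called gene was *pitx1*, which in vertebrates marks the oral ectoderm and pituitary primordium and acts in the jaw as well. It had 188, 172 and 165 normalized counts in the mutant pools, against 90.9, 85.8 and 84.3 in the WT pools, which gave 1.00 on the log2 scale (limma adjusted p = 0.000451, standard error 0.14), and it was called with each library left out. The 3 lower ones were the LIM and homeobox genes *lhx4*, *isl1* and *hesx1*, with log2 fold changes of -0.44, -0.38 and -0.31 (limma adjusted p = 0.00866, 0.00876 and 0.0208). They are named after their values were seen. *lhx4* and *isl1* are also active in neurons and retina, so that their values are not of the pituitary alone.

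Of the 4 other genes for hormones of pituitary type, *prl2* and *pomcb* were tested. *prl2*, the second prolactin gene, had 10.2, 12.5 and 15.6 normalized counts in mutant pools 1, 2 and 3, against 4.13, 1.88 and 6.40 in WT pools 1, 2 and 3. It was called higher at a log2 fold change of 1.51 (adjusted p = 0.0480 in limma, standard error 0.53), the opposite direction to the value of *prl*. It passed the filter through the mutant pools alone, and it was called in 1 of 6 fits with a library left out (adjusted p from 0.0452 to 0.131). On the recovered reads it was called in edgeR (adjusted p = 0.0341) and limma-voom (0.0363) and not in DESeq2 (0.0866). *pomcb* had 13.3, 8.33 and 9.53 normalized counts in the mutant, against 15.5, 17.0 and 22.4 in WT (log2 fold change -0.77, limma adjusted p = 0.142).

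The hypothalamic factors that release or hold back these hormones showed no called gene. Of 11 such genes 9 were tested, 0 were called by limma in either direction, 0 had an adjusted p under 0.05, and the median log2 fold change was -0.15. The neuropeptide gene *adcyap1b*, whose product can release growth hormone in fish, was at -0.15 on the log2 scale (limma adjusted p = 0.115), and the somatostatin gene *sst1.1*, whose product holds back growth hormone, had -0.24 (adjusted p = 0.0665). The gene for the growth hormone-releasing hormone, *ghrh*, had at most 4.17 normalized counts in a mutant pool and 1.88 in a WT pool, under the filter. Thyrotropin-releasing hormone, *trh*, was at 0.18 (adjusted p = 0.279). It was above 0 while that of *tshba* was below.

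The receptors for these factors sit on pituitary cells but also in the brain, and 1 of them was called lower. Of 19 tested identifiers 16 had a negative log2 fold change (14 with libraries scaled to neuron markers), with a median of -0.40, and 5 were lower at an adjusted p under 0.05 and none higher. Over all tested genes 52.3% were below 0 and 15.1% were lower by that rule. Only *gnrhr4*, a receptor for gonadotropin-releasing hormone, passed the limit on the fold change as well, with 45.1, 52.1 and 45.1 normalized counts in the mutant, against 84.7, 59.4 and 76.8 in WT (log2 fold change -0.61, limma adjusted p = 0.0440). It was called in 1 of 6 fits with a library left out, with an adjusted p from 0.0311 to 0.153. The call was also lost in edgeR (adjusted p = 0.0564), DESeq2 (0.0805) and limma-voom (0.0665). The other 4, named after their values were seen, were *ghrhra* for growth hormone-releasing hormone with -0.496 (adjusted p = 0.0421), *sstr1b* for somatostatin with -0.45 (adjusted p = 0.0234), *drd4a* for dopamine with -0.42 (adjusted p = 0.0490) and *crhr1* for corticotropin-releasing hormone with -0.40 (adjusted p = 0.0253).

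Genes for cutting prohormones and for secretory granules are shared by hormone cells and neurons, and none of them was called. All 9 tested identifiers had a negative log2 fold change (8 of 9 with libraries scaled to neuron markers), beside 52.3% of all tested genes. At an adjusted p under 0.05, 6 were lower, beside 15.1% of all tested genes, but 0 were called by limma. The median was -0.31, close to the -0.29 of *gh1*. The carboxypeptidase gene *cpe*, which trims cut peptides, had 12182, 11329 and 13668 normalized counts in mutant pools 1, 2 and 3, against 15647, 15361 and 14918 in WT pools 1, 2 and 3 (log2 fold change -0.31, limma adjusted p = 0.0213). The granule protein gene *scg2b* had -0.21 (adjusted p = 0.0361). The prohormone convertase gene *pcsk1*, whose product cuts proopiomelanocortin, had -0.40 (adjusted p = 0.00914) and is named after its value was seen.

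**Figure D4:**
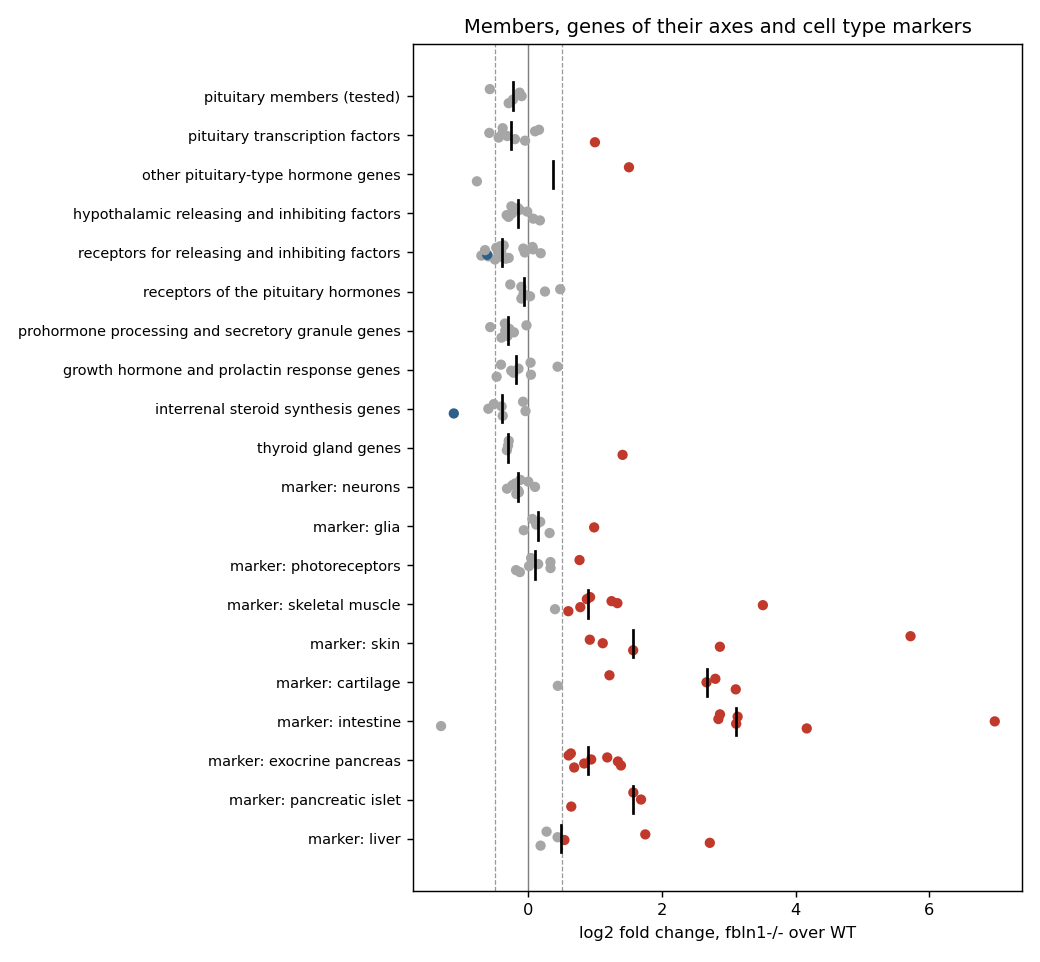
Log2 fold change of *fbln1*-/- over WT (horizontal axis) of every tested gene of each list (rows), with red for genes called higher, blue for genes called lower, grey for the rest, a black tick for the median and dashed lines at the limit of 0.5. The pituitary members have a median of -0.23, the neuron markers of -0.15 and the granule genes of -0.31, while most skin, cartilage, intestine and exocrine pancreas markers are red.

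On the receiving side, no receptor of the pituitary hormones was called. Of 16 such genes 7 were tested and 0 were called by limma, with 0 at an adjusted p under 0.05 and a median log2 fold change of -0.07. The prolactin receptor gene *prlra* averaged 434 ± 44.6 normalized counts in mutant pools, against 458 ± 74.4 in WT pools (SD, n = 3), and the growth hormone receptor gene *ghrb* had 279 ± 47.2 in mutant pools, against 271 ± 14.2 in WT pools. Among 8 genes of the growth hormone and prolactin response, 0 were called and 1 was lower at an adjusted p under 0.05, the signal transducer gene *stat5a* (-0.41, limma adjusted p = 0.0366, named after its value was seen). By the same rule 15.1% of all tested genes were lower. The log2 fold change was -0.22 for *igf2b* (adjusted p = 0.0552) and -0.14 for *cish* (adjusted p = 0.366), a feedback inhibitor of the receptor. *igf1*, the main target of growth hormone, had 33.8, 49.0 and 32.1 normalized counts in mutant pools 1, 2 and 3, against 52.7, 73.5 and 37.3 in WT pools 1, 2 and 3. The groups overlapped (log2 fold change -0.47, limma adjusted p = 0.235), and *igf1* is likewise named after its values were seen.

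Genes of the glands that these hormones drive were read in the same pools, whose markers do not match heads alone. How much of each gland a pool held was not tested. Of 7 tested genes of steroid synthesis in the interrenal gland, the target of corticotropin, 7 had a negative log2 fold change (5 with libraries scaled to neuron markers), beside 52.3% of all tested genes. In this list 1 was called lower, *cyp11a2*, for the first step of the pathway. It had 10.2, 8.33 and 7.80 normalized counts in the mutant pools, against 22.7, 15.1 and 23.5 in the WT pools (log2 fold change -1.11, limma adjusted p = 0.0429), and was called in 1 of 6 fits with a library left out (adjusted p from 0.0444 to 0.130). On the recovered reads it was called in edgeR (adjusted p = 0.0406) and neither in DESeq2 (0.0884) nor in limma-voom (0.0535). This gene passed the filter through the WT pools. Without the limit on the fold change, 2 interrenal genes were lower at an adjusted p under 0.05, beside 15.1% of all tested genes. The other one was *star*, with -0.38 (limma adjusted p = 0.0294), named after its value was seen. Of 4 tested thyroid genes 1 was called higher: *tg*, the thyroglobulin gene from which thyroid hormone is made, had 113, 87.5 and 110 normalized counts in the mutant, against 41.3, 26.4 and 50.1 in WT. Its log2 fold change was 1.41 (limma adjusted p = 0.00216, standard error 0.25) and it was called with each library left out, while *tshba*, for the hormone that stimulates this gland, had -0.57. The other 3 tested thyroid genes, *duox*, *nkx2.4b* and *pax8*, had negative log2 fold changes of -0.32, -0.30 and -0.29. None of these was at an adjusted p under 0.05, and the median of the list was -0.295.

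Markers of other tissues moved with genotype in these pools. Of 9 neuron markers, none at 0 in any pool, 7 had a negative log2 fold change, 0 were called by limma and 1 (*syt1a*) was lower at an adjusted p under 0.05, with a median of -0.15. Over all tested genes 52.3% were below 0 and 15.1% were lower by that rule. The summed normalized counts of the neuron markers ran from 45532 to 49085 in the mutant and from 53360 to 54170 in WT, without overlap. All 5 skin markers, 4 of 5 cartilage markers, 6 of 7 intestine markers, 8 of 8 exocrine pancreas markers and 7 of 8 skeletal muscle markers were called higher, with medians of 1.57, 2.67, 3.11, 0.89 and 0.90. Of 6 liver markers 3 were called higher, with a median of 0.49. For other tissues of the brain and eye, 1 of 6 glia markers and 2 of 8 photoreceptor markers were below 0, with medians of 0.15 and 0.097 and 1 gene called higher in each list. Exocrine pancreas markers summed to 195492 to 323046 normalized counts in the mutant and 107401 to 196931 in WT. The part of the other tissues in the lower hormone values was not tested. Per 1000 normalized counts of the neuron markers there were 24.4, 28.2 and 26.4 counts of *gh1* in mutant pools 1, 2 and 3, against 27.7, 30.4 and 26.4 in WT pools 1, 2 and 3, so that the groups overlapped on this scale. With libraries scaled to the neuron markers, which moved the median of all genes to 0.108, the log2 fold change of *gh1* was -0.16 (limma adjusted p = 0.18) and that of *tshba* was -0.44 (adjusted p = 0.174). This scaling was chosen after the values were seen.

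**Figure D5:**
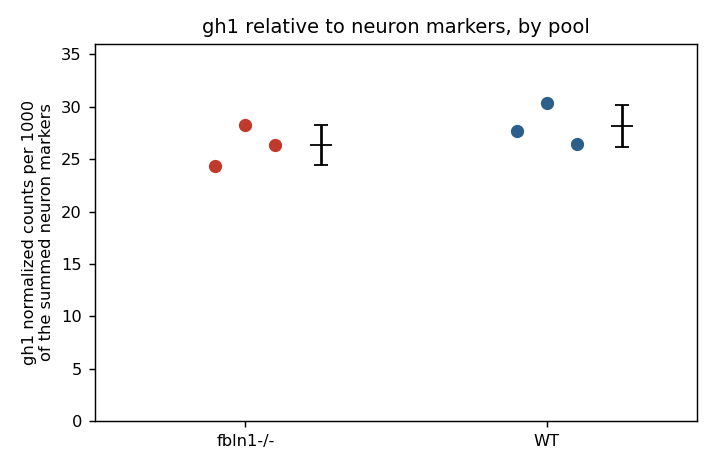
Normalized counts of *gh1* per 1000 summed normalized counts of 9 neuron markers (vertical axis, from 0) in the 3 *fbln1*-/- pools (red, left) and 3 WT pools (blue, right), with mean and SD as bars. The mutant pools, at 24.4 to 28.2, overlap the WT pools, at 26.4 to 30.4.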

How the data were processed

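RNA-Seq was performed on pooled heads of 10 dpf larvae, 3 pools per genotype. The authors used the nf-core pipeline for RNA-Seq, with GRCz11 and an Ensembl annotation, and deposited counts divided by 1 size factor per library, a normalized signal rather than raw reads. When each value was divided by what 1 read is worth in its library, 100% were whole numbers (tolerance 0.01 reads). A deposited table of the authors' own comparison (fold changes, p-values, means) was not used. Counts of same-genotype pools differed beyond counting noise (chi-square divided by its degrees of freedom 5.94 to 16.1).

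Genes reaching 10 normalized counts in 3 or more of 6 libraries were tested with limma version 3.58.1 in R version 4.3.3 on log2(value + 1), which understates changes of low genes, with genotype as the only term, a variance trend and Benjamini-Hochberg adjustment over all 20691 tested genes. The script was tested on simulated data with equal numbers of raised and lowered genes. This checks the code only, since in these pools most called genes were higher. Intervals are limma's 95% intervals, and ratios were compared by exact permutation in scipy version 1.17.1. Alternatives were other scalings, filters and pseudocounts, no trend, a replicate block, edgeR version 4.0.16, DESeq2 version 1.42.0 and limma-voom on the recovered reads, and leaving out each library.

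The members and gene lists were chosen with earlier results of these data known. The rule for names takes all 10 members and, of each list, up to 4 called genes with the largest change, or else the 2 with the highest mean. Levels of different genes were not compared, since transcript lengths were not used here, and no sequences are shown. The labels call the batches of a genotype independent. The p-values rest on the spread between these pools, which the main limma fit draws toward that of genes of similar level.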

Additional observations from a re-analysis of the deposited data

How the results depend on the processing

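Over all tested genes, the 3191 genes called higher stayed within 1.5 times that number under every alternative, while the 555 called lower became 320 with edgeR, 312 with limma-voom, 3116 without the limit on the fold change, 85 with neuron marker scaling (chosen after the values were seen) and 255 to 1105 with 1 library left out (lowest without WT replicate 1, 263 without mutant replicate 2, highest without mutant replicate 3). No member was called under any alternative, except 1 called lower (*tshba*) in limma without a variance trend and 1 (*gh1*) without the limit on the fold change. Without a variance trend the log2 fold changes are as before, with an adjusted p of 0.0913 for *gh1* (-0.29) and 0.035 for *tshba* (-0.57). With neuron marker scaling, where 97.8% of the called genes were higher, against 85.2% without it, *gh1* had -0.16, *pomca* 0.038 and *cga* 0.0056, and *gnrhr4* and *cyp11a2* were no longer called (adjusted p = 0.14 and 0.0853). With each library left out, the log2 fold change ran from -0.34 to -0.23 for *gh1*, from -0.35 to -0.09 for *prl*, from -0.25 to 0.064 for *pomca*, from -0.27 to 0.061 for *cga* (both highest without WT replicate 2) and from -0.66 to -0.47 for *tshba*. The cause of these shifts was not tested.

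The replicate numbers were not taken as pairs in the main fit, since the study states no such term. Same-numbered pools correlated at 0.0408 to 0.149 in their deviations from the group means, against -0.0906 to 0.0476 for pools of different number. Of 6 pools 4 correlated best with their own number, and whether the pools were paired was not settled by these values. With the replicate block, 3241 genes were called higher and 581 lower and the adjusted p of *gh1* was 0.0184. The block changed no call of a member. It ended the calls of *prl2*, *gnrhr4* and *cyp11a2* (adjusted p = 0.0538, 0.0601 and 0.0579). Genes with fewer than about 20 reads per library, among them 5 of the 10 members, are limited by depth.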

Other observations

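Peptide hormone genes of the pancreatic islet were measured in the same pools. All 3 genes of an islet list were called higher in the mutant (limma). The insulin gene *ins* had 283, 198 and 216 normalized counts in mutant pools 1, 2 and 3, against 166, 129 and 146 in WT pools 1, 2 and 3, which gave 0.64 on the log2 scale (adjusted p = 0.0115 in limma). The glucagon genes *gcga* and *gcgb* had log2 fold changes of 1.69 and 1.57. Markers of the exocrine pancreas were higher in the same pools, and their part in these values was not tested.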
